A study of Mus musculus with 6 samples.

Results

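The machinery of clathrin-mediated endocytosis was examined as a list of 37 genes, matched by gene symbol in the authors' deposited table of differential expression and by gene ID in the count files. All 37 were found among 49315 gene IDs, and all 37 were among the 23989 genes that passed the low-count filter and were tested. The genes were described in 6 roles: 3 clathrin chains, 5 subunits of the adaptor complex AP-2, 6 pioneer scaffolds, 10 further adaptors and accessory proteins, 8 proteins of membrane curvature and scission, and 5 genes for kinases, a lipid phosphatase and uncoating.

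In clathrin-mediated endocytosis, AP-2 and early scaffolds bind phosphoinositide lipids and receptor tails at the plasma membrane and recruit clathrin, a lattice of heavy and light chains that bends the membrane into a coated pit. Dynamin then cuts the neck of the pit, and the chaperone Hsc70 with an auxilin cofactor strips the coat so that it can be used again. Endothelial cells take up transferrin, lipoproteins and activated growth factor receptors by this route, and it is one of several routes by which particles can enter cells. Several of these proteins have a close relative known mainly from synapses, where the same steps recycle vesicles.

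The RNA came from endothelial cells of 4T1 tumours, a mouse mammary carcinoma line grown in its syngeneic host. Female Balb/c mice received 1000000 4T1 cells in the inguinal mammary fat pad at 8 weeks of age, and the tumours grew for 2 weeks, so the mice were 10 weeks old at harvest. Each animal was given 1E12 gold nanoparticles of 50 nm, coated with 5 kDa methoxy-PEG and carrying the dye Cy5, through the tail vein 1 hour before the tumour was taken. CD45-depleted, CD31-selected cells were then sorted into a nanoparticle-positive group (NP+) and a nanoparticle-negative group (NP-), 1 library of each per tumour from 3 tumours, which the labels call MET-106, MET-107 and MET-108, 6 libraries in all. Cells of both groups came from animals that had received particles, so there was no group without particles, and the groups differ in whether a sorted cell carried detectable particles. The question a comparison of NP+ with NP- addresses is which transcripts differ between tumour endothelial cells that held particles and those that did not.

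The libraries held between 20856410 and 58089600 counts assigned to genes. Levels are CPM, counts brought to a common library size of 1000000, with library sizes scaled by edgeR's trimmed mean of M values (TMM). Differences were tested with the quasi-likelihood method of edgeR and Benjamini-Hochberg adjustment over all 23989 genes, and a difference was called at an adjusted p under 0.05. The 10 endothelial markers, Pecam1 and Cdh5 among them, summed to 10632 to 12451 CPM in NP+ against 7134 to 9984 CPM in NP-. Sums of markers of other cells were mostly higher in NP-. The 8 fibroblast markers summed to 16.7 to 57.7 CPM in NP+ and to 3882, 140.1 and 58.5 CPM in NP- (MET-106, MET-107, MET-108). The 13 leukocyte markers summed to 23.2 to 31.7 CPM in NP+ against 47.7 to 169 CPM in NP-, the 8 mural cell markers to 91.5 to 112 and 147 to 822 CPM, and the 8 epithelial markers to 9.39 to 15.2 and 17.8 to 601 CPM. The 7 adipocyte markers summed to 1131 to 1556 CPM in NP+ and to 1789.7 to 3268 CPM in NP-, without overlap. Only 1 of the 7 had a mean of at least 5 CPM, so this sum is nearly that of 1 gene. The list includes Fabp4, which capillary endothelial cells also express. The 8 neuronal markers summed to 38.4 to 52.2 CPM in NP+ against 75.1 to 124 CPM in NP-, and the 7 erythroid and platelet markers overlapped, at 17.1 to 22.5 CPM in NP+ and at 11.6 to 64.3 CPM in NP-. At an unadjusted p under 0.05, 7 of 8 fibroblast, 8 of 12 tested leukocyte, 6 of 8 mural, 6 of 7 tested epithelial, 3 of 8 neuronal, 1 of 5 tested adipocyte and 1 of 6 tested erythroid and platelet markers were lower in NP+, and 3 of 10 endothelial markers were higher. Of all tested genes, 15.4% were lower and 8.01% higher, and of those with at least 5 CPM 5.48% and 17.5%. No leukocyte, fibroblast, mural or neuronal marker that was tested had a count of 0 in any library. The NP- library of MET-106 stood apart, with the most fibroblast, mural and epithelial marker RNA and with 3.90% of its counts in mitochondrial genes, against 1.01% to 1.5% in the other 5 libraries. In bulk samples such as these, fewer cells of a type and less RNA per cell cannot be told apart, and the part of other cells in the differences below was not tested.

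The promoter sequences of 5 members are shown first because the results turn on these genes: Ap2a1 and Ap2a2, which encode the alternative alpha subunits of AP-2 and had the largest differences among the well-expressed members, Clta and Cltb, the alternative light chains whose shares did not overlap between the groups, and Dnm2, the main dynamin of these libraries. Each run is 120 bases of the upstream sequence from RefSeq's table for GRCm38.p6, given 5′ to 3′ on the gene's strand, with GC boxes (GGGCGG) and CCAAT boxes (CCAAT) in capitals, on either strand (CCGCCC and ATTGG on the other one).
Ap2a1 promoter, chr7:44929497-44929616, minus strand: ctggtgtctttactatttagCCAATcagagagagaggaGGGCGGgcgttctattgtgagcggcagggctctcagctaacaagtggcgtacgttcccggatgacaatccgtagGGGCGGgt
Ap2a2 promoter, chr7:141562053-141562172, plus strand: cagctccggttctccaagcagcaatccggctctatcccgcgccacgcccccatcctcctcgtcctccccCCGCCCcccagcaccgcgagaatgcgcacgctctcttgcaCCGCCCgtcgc
Clta promoter, chr4:44004323-44004442, plus strand: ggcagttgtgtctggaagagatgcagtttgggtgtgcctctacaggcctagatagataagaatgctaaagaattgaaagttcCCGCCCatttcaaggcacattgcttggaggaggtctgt
Cltb promoter, chr13:54611374-54611493, minus strand: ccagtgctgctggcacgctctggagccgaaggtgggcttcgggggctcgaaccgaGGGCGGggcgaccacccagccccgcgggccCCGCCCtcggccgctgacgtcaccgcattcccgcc
Dnm2 promoter, chr9:21424788-21424907, plus strand: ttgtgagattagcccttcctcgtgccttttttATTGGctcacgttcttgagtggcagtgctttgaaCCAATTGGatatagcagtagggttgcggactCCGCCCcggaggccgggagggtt

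The files place Ap2a1 (ENSMUSG00000060279) at chr7:44900373-44929496 on the minus strand, Ap2a2 (ENSMUSG00000002957) at chr7:141562173-141633011 on the plus strand and Dnm2 (ENSMUSG00000033335) at chr9:21424908-21507759 on the plus strand. Clta (ENSMUSG00000028478) lies at chr4:44004452-44032846 on the plus strand and Cltb (ENSMUSG00000047547) at chr13:54592401-54611344 on the minus strand. Upstream sequence was found for 33 of the 37 members, not for Bin1, Hspa8, Epn3 and Necap2. Over the 250 bases before the RefSeq start, GGGCGG was present on either strand in 20 of the 33 members (60.6%) and in 32.7% of the 32851 windows of all genes. CCAAT was in 24.2% of the members and 33.8% of all windows, TATAAA in 3.03% and 12.4%, CACGTG in 12.1% and 6.02%, and the ETS-type motif CCGGAAG in 15.2% and 6.91%. The median GC content of the members' windows was 60% and that of all windows 52.4%. The sets are unlike: each member, all protein-coding and tested, gave the 1 window nearest its start. All windows were counted for the comparison, with no filter for tested or protein-coding genes. These are matches of letters in a window of sequence, with no binding measured. Over the 250 bases, of which the runs above show 120, the light chains differed. Clta had 1 GC box and 3 CpG pairs, and Cltb 2 GC boxes and 21 CpG pairs. The RefSeq start lay within 50 bp of the gene's start in the count files for 25 of the 33 members. Which starts were in use was not measured.

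Each of the 6 roles had members at a substantial level in both groups. A mean of at least 5 CPM over the 6 libraries was reached by 29 of the 37 genes, and at least 100 CPM by 14. Per kb of exonic length, the highest level was that of Hspa8, which encodes the uncoating chaperone Hsc70, at 540.2 CPM per kb, followed by the AP-2 medium subunit gene Ap2m1 at 114 and the endophilin gene Sh3gl1 at 100.3. Clta, Ap2s1, Cltc, Necap2, Dnm2, Cltb and Dab2 came next, between 85.9 and 22.5 CPM per kb. The first 10 places held 9 of the same genes when levels were taken per kb of coding length. Under 5 CPM were 8 members, namely Fcho1, Epn3, Snap91, Amph, Sh3gl2, Sh3gl3, Dnm1 and Dnajc6, most of them known mainly from neurons.

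**Figure D1:**
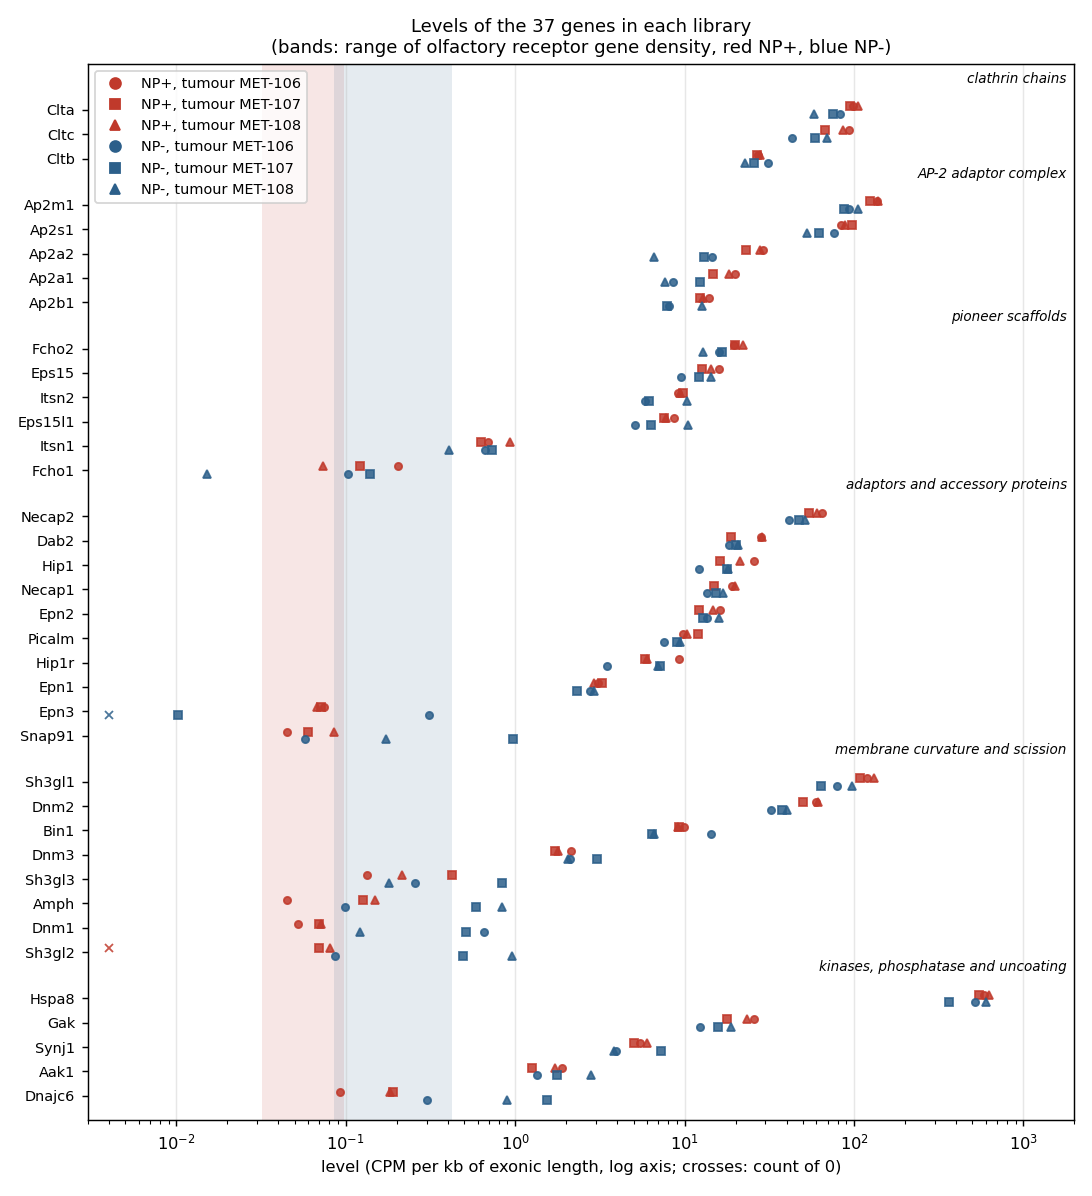
Level of each of the 37 genes in each of the 6 libraries, in CPM per kb of exonic length on a log axis, grouped by role. Red marks are NP+ and blue marks NP-, with 1 mark shape per tumour, and the shaded bands are the ranges of the density of counts over 1106 olfactory receptor genes. Hspa8 lies highest, and the 8 members under 5 CPM lie in or near the bands.

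No member reached an adjusted p under 0.05 in edgeR's test. The lowest adjusted p was 0.113, for Ap2a2, and of all tested genes 0.0125% were called higher in NP+ and 0.0167% lower. At an unadjusted p under 0.05, 10 members were higher in NP+ (8.01% of all tested genes) and 5 were lower (15.4% of all tested genes). Level bears on that background: among the 10825 genes with a mean of at least 5 CPM, 17.5% were higher and 5.48% lower, while 10 of the 29 members at that level (34.5%) were higher and 0 lower. The 10 were Cltc, Clta, Ap2a1, Ap2a2, Ap2m1, Ap2s1, Fcho2, Sh3gl1, Dnm2 and Gak. The 5 lower ones, Snap91, Amph, Sh3gl2, Dnm1 and Dnajc6, were all under 5 CPM. In the same model with a term for the tumour, 6 members were higher (Ap2a1, Ap2a2, Ap2m1, Ap2s1, Sh3gl1 and Dnm2) and 4 lower. Leaving out the NP+ library of MET-106 or of MET-108 left 4 and 3 higher members, and leaving out both libraries of MET-107 or of MET-108 left 4 and 6. The lower members were 2 without the NP+ library of MET-106, the NP+ library of MET-107 or the NP- library of MET-107, and 3 without either library of MET-108. Without the NP- library of MET-106, which stood apart in other cells' markers, 9 members were higher and 4 lower. The shares of all genes called with the tumour term or with libraries left out were not computed. Whether these changes are particular to the members therefore cannot be read.

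For part of the list the NP+ and NP- libraries did not overlap, at a share near that of other genes of the same level. The 3 NP+ values lay above the 3 NP- values for 10 members and below them for 3, against 13.3% and 15.6% of all tested genes. Of the 29 members with at least 5 CPM, 10 lay above, where 27.3% of genes of that level did, and 0 below, where 5.34% did. Within each tumour, NP+ was higher in 3 of 3 for 14 of these 29 members, against 39.7% of the genes of that level. Cltb, the pioneers other than Fcho2 and most further adaptors were not among these 14. With total-count scaling, 3 of the 29 lay above and 2 below, and 4 were higher in 3 of 3 tumours. The matching shares of all genes were not computed under that scaling. The median log2 fold change of genes at that level also moved, from 0.24 with TMM to -0.06 with total counts. Fitted differences ran from a log2 fold change (NP+ over NP-) of -3.33 for Sh3gl2 to 1.23 for Ap2a2, with a median of 0.26 over the 37 members and -0.29 over all tested genes. For the 29 members with at least 5 CPM the median was 0.34, beside 0.24 for all genes of that level and 0.41 for the endothelial markers, so the well-expressed members as a whole lay 0.10 above other genes of their level. Without the NP- library of MET-106 the members' median and that of genes at their level were both 0.32.

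**Figure D2:**
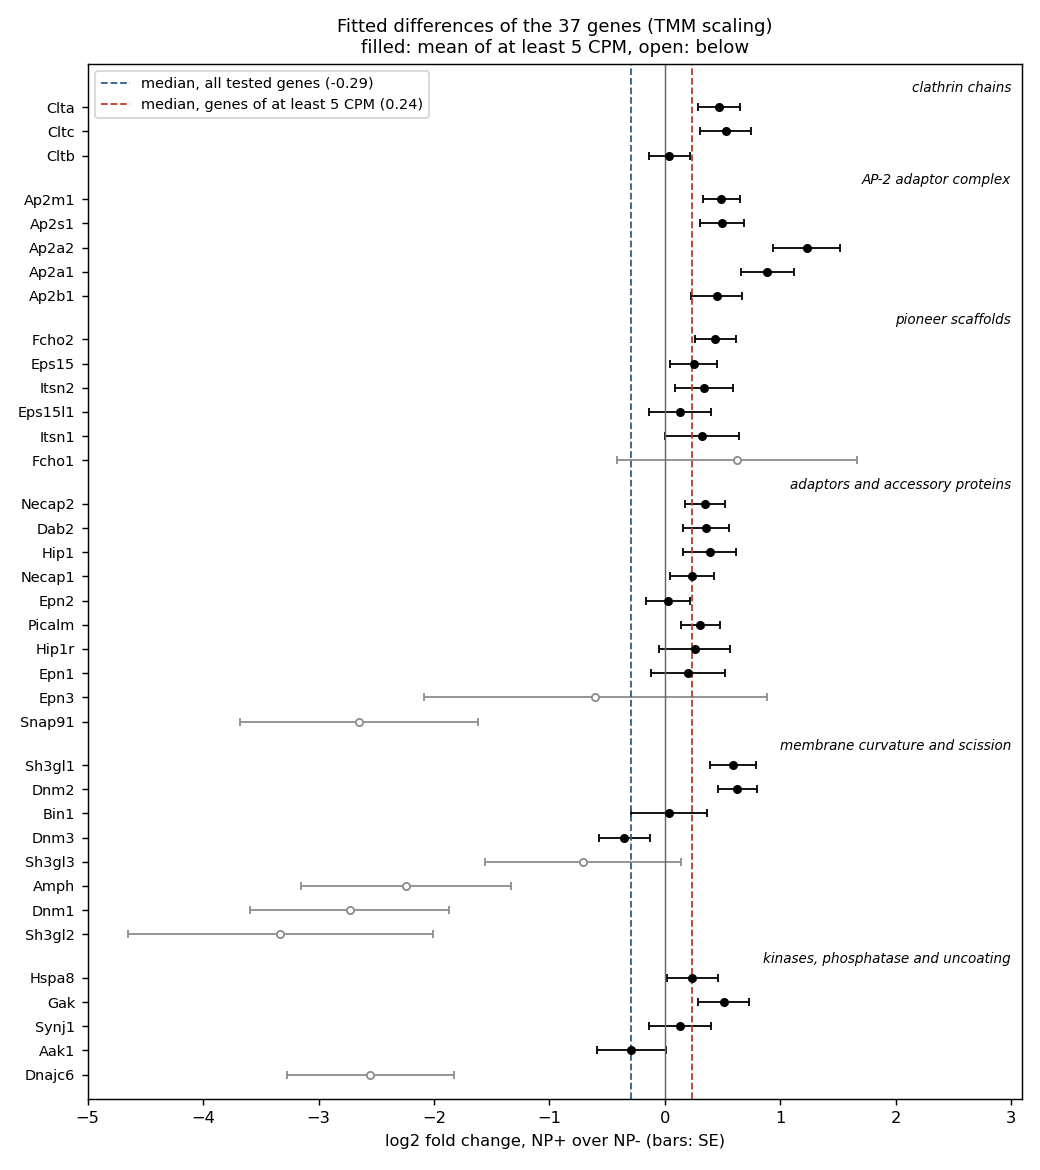
Log2 fold change of NP+ over NP- for each of the 37 genes, with its standard error, from edgeR's fit with TMM scaling, n = 3 libraries a group. Filled points have a mean of at least 5 CPM and open points are below it. Ap2a2 and Ap2a1 lie farthest to the right among filled points, and open points of low genes lie to the left with wide errors.

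The clathrin coat is built from triskelia of heavy chains, encoded by Cltc. Each heavy chain can bind a light chain of the type encoded by Clta or by Cltb. Cltc stood at 789, 570.2 and 733 CPM in NP+ (MET-106, MET-107, MET-108) and at 364, 502 and 586 CPM in NP-. NP+ was the higher in each tumour, but the NP+ library of MET-107 was below the NP- library of MET-108. The log2 fold change was 0.53 (SE 0.22, edgeR p 0.0434, adjusted p 0.202), with ratios within the tumours of 1.12, 0.18 and 0.32 on the log2 scale. Without both libraries of MET-106 the fitted log2 fold change was 0.46.

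Clta stood at 177, 171 and 190.4 CPM in NP+ against 149, 135 and 105 CPM in NP-, with no overlap of the groups. Its log2 fold change was 0.47 (SE 0.18, edgeR p 0.0314, adjusted p 0.180). Cltb, in contrast, was at 132, 131 and 135 CPM in NP+ and at 152, 125 and 110.2 CPM in NP-, so that NP+ lay inside the range of NP-. Its log2 fold change was 0.04 (SE 0.18, adjusted p 0.897) and turned negative under total-count and upper-quartile scaling (-0.26 and -0.20).

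The balance of the light chains does not depend on how libraries are scaled, because both genes are read from the same library. Per kb of exonic length, Clta made up 78.4%, 77.9% and 79.2% of light chain level in NP+ and 72.7%, 74.5% and 72.0% in NP-. The mean was 78.5% ± 0.643 (SD, n = 3) in NP+ and 73.0% ± 1.30 in NP-, a difference of 5.48 percentage points, and the groups did not overlap. Per kb of coding length the shares were 55.5% and 48.1%, again without overlap. Such shares were computed for 13 families or pairs of members, and apart from the light chains, the groups did not overlap for the dynamins, for the auxilins and for Sh3gl2 among the endophilins. Of these genes, Dnm1, Dnajc6 and Sh3gl2 had a mean under 5 CPM. How often shares of other gene families separate in these libraries was not computed. With 3 libraries against 3, the smallest p an exact two-sided permutation test can give is 0.10, so the shares are given as descriptions.

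AP-2 links the coat to the membrane and to cargo, and is made of an alpha subunit (Ap2a1 or Ap2a2), a beta subunit (Ap2b1), a medium subunit (Ap2m1) and a small subunit (Ap2s1). With TMM scaling, it was the role in which the members were higher in NP+ most uniformly. NP+ exceeded NP- in 3 of 3 tumours for 5 of 5 subunits, against 39.7% of genes with at least 5 CPM. With total-count scaling, only 4 of all 29 members at that level were higher in 3 of 3, and the share of all genes was not computed. By total counts, NP+ was below NP- for Ap2a1 in MET-107, Ap2b1 in MET-108 and Ap2s1 in MET-106. Ap2a2 and Ap2m1 stayed higher in each tumour. The fitted log2 fold change of each subunit was positive in each of 20 fits. These were the main fit and those with other scalings, filters, tools, the tumour block or libraries left out. The fits share libraries, and members of other roles, Cltc, Clta, Picalm, Dab2 and Gak among them, were also positive in all 20. At an unadjusted p under 0.05, 4 of 5 were higher, where 17.5% of genes with at least 5 CPM were, and 0 of 5 passed the adjustment. Summed over the 5 genes, AP-2 stood at 1069, 968 and 1052 CPM in NP+ and at 691, 649.6 and 698 CPM in NP-, a ratio of means of 1.52.

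Ap2a2 stood at 165, 131 and 157 CPM in NP+ and at 82.3, 73.7 and 37.4 CPM in NP-. The groups were far apart, and the NP- library of MET-108 was the lowest of the 6. Its log2 fold change was 1.23 (SE 0.29, edgeR p 0.00220, adjusted p 0.113), and within the tumours the log2 ratios were 1.00, 0.83 and 2.07. With the tumour block it was 1.30 (SE 0.28, p 0.00209).

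Ap2a1 stood at 85.2, 63.2 and 78.4 CPM in NP+ and at 37, 52.9 and 32.9 CPM in NP-, again without overlap, with the groups nearest in MET-107. Its log2 fold change was 0.89 (SE 0.23, edgeR p 0.00452, adjusted p 0.126). Both alpha subunits had an unadjusted p under 0.05 in each of the 20 fits, the block and each left-out library among them. Their adjusted p ran over those fits from 0.00395 to 0.413 for Ap2a2, under 0.05 in 3 of them, and from 0.00972 to 0.413 for Ap2a1, under 0.05 in 2. Within the alpha subunits, Ap2a2 took 59.5%, 61.1% and 60.4% of the level per kb in NP+ and 62.8%, 51.4% and 46.3% in NP-, so the groups overlapped and the NP- libraries were the more spread out.

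The other AP-2 subunits differed by less. Ap2m1, whose product reads sorting motifs in receptor tails, stood at 572, 523 and 574 CPM in NP+ against 389, 363 and 439.9 CPM in NP-, a log2 fold change of 0.49 (SE 0.16, edgeR adjusted p 0.151). Ap2s1 stood at 124, 143 and 130.4 CPM in NP+ and at 112, 91.1 and 77.4 CPM in NP-, a log2 fold change of 0.50 (SE 0.19, edgeR adjusted p 0.171). Neither gene's groups overlapped, whereas those of Ap2b1 did. Its level per kb of exonic length was 14.0, 12.4 and 12.8 CPM per kb in NP+ and 8.12, 7.89 and 12.6 CPM per kb in NP-, so that MET-108 was nearly equal and NP+ of MET-107 lay just below NP- of MET-108 (log2 fold change 0.45, SE 0.22, edgeR adjusted p 0.244). Ap2a1 and Ap2a2 each overlap a gene on the opposite strand in the annotation (Fuz and Gm16982), and the kit does not keep strand, so reads in the shared stretch cannot be assigned to one of the pair with certainty.

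**Figure D3:**
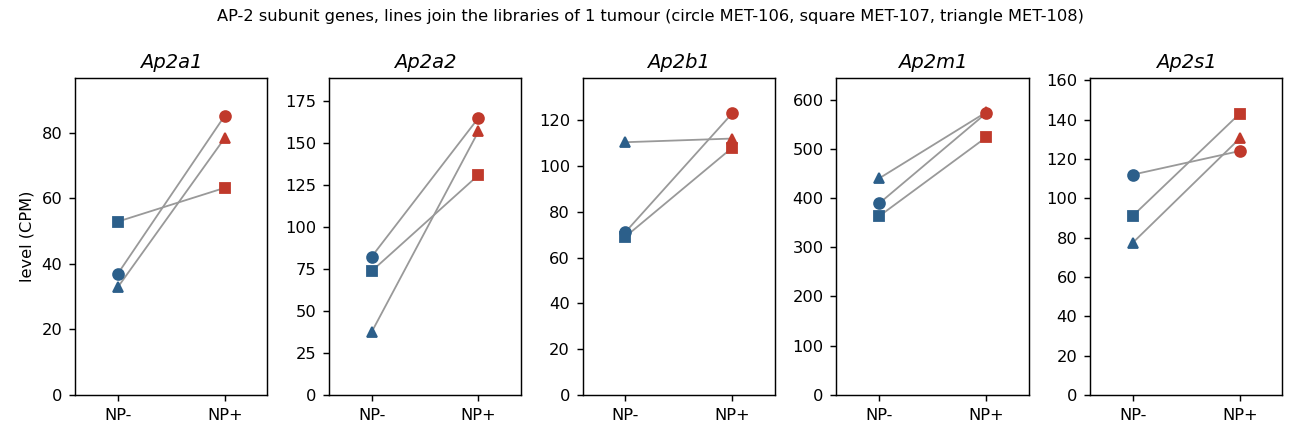
Level in CPM of the 5 AP-2 subunit genes in NP- (blue) and NP+ (red), with a line joining the libraries of each tumour and the axis starting at 0. Each line goes up from NP- to NP+, from 37.4 to 157 CPM for Ap2a2 in MET-108 and by little for Ap2b1 in that tumour.

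The pioneers gather at the membrane before clathrin and shape the young pit. Fcho2, an F-BAR protein that binds AP-2, stood at 102, 104 and 116 CPM in NP+ and at 83.1, 87.3 and 66.9 CPM in NP-. The groups did not overlap, and the log2 fold change was 0.44 (SE 0.18, edgeR p 0.0348, adjusted p 0.186). None of the other 5 pioneers had an unadjusted p under 0.05. The scaffolds Eps15, Eps15l1, Itsn1 and Itsn2 had log2 fold changes between 0.13 and 0.34 with overlapping groups, and for Eps15l1 and Itsn2 the NP- library of MET-108 held the highest level of the 6 (70.9 and 61.6 CPM). Fcho1, the paralogue of Fcho2, stayed between 0.0673 and 0.906 CPM. Fcho2 held at least 99.0% of the level of the pair per kb in each library.

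Of the 10 further adaptors and accessory proteins, 0 were higher and 1, Snap91, was lower at an unadjusted p under 0.05. Picalm, the clathrin assembly protein CALM, stood at 154, 188 and 163 CPM in NP+ and at 119, 143 and 147 CPM in NP-. Its groups did not overlap, but the difference was small against its error (log2 fold change 0.31, SE 0.17, edgeR p 0.111, adjusted p 0.300). Necap2, of a family of adaptor-binding proteins, had 199, 167 and 186 CPM in NP+ against 128, 147 and 159 CPM in NP-, likewise without overlap (log2 fold change 0.35, SE 0.17, edgeR adjusted p 0.246).

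Dab2, an adaptor for receptors of the low-density lipoprotein family, was at 207, 138 and 211 CPM in NP+ against 135, 147 and 152 CPM in NP-. In MET-107 the NP+ library was the lower of the pair, so the groups overlapped (log2 fold change 0.36, SE 0.20, edgeR adjusted p 0.302). Hip1 and Hip1r, which tie the pit to actin, Epn1 and Epn2, the epsins, and Necap1 all overlapped between the groups, with log2 fold changes between 0.03 and 0.39. Epn3 was near the limit of detection, from 0 counts in the NP- library of MET-108, which allows up to 0.101 CPM, to 1.25 CPM in that of MET-106.

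Of the 8 genes of membrane curvature and scission, 2 were higher in NP+ at an unadjusted p under 0.05, the broadly expressed Dnm2 and Sh3gl1, and 3 were lower, all of them known mainly from neurons. Dnm2, the ubiquitous dynamin, stood at 319, 267 and 325 CPM in NP+ against 173, 201 and 216 CPM in NP-. Each NP+ library was above each NP- library. The log2 fold change was 0.63 (SE 0.17, edgeR p 0.00570, adjusted p 0.127), the unadjusted p with the tumour block was 0.0149, and it was under 0.05 in 16 of the 20 fits. Sh3gl1, endophilin A2, which binds dynamin and curved membrane, stood at 249, 225 and 274 CPM in NP+ and at 164, 133 and 202 CPM in NP-, a log2 fold change of 0.59 (SE 0.20, edgeR p 0.0166, adjusted p 0.152), also without overlap. Dnm2 shares annotated bases with Tmed1 and Sh3gl1 with Mpnd, each on the opposite strand. Bin1, the amphiphysin found outside neurons, did not separate the groups: 24.2, 22.6 and 22.5 CPM in NP+ against 35.2, 15.8 and 16.3 CPM in NP- (log2 fold change 0.04, SE 0.33).

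Dnm3 was the exception among genes known mainly from neurons, since it was well above background in these cells. It stood at 52.1, 42.4 and 43.6 CPM in NP+ and at 51.7, 74.8 and 50.0 CPM in NP-, with overlapping groups and a log2 fold change of -0.35 (SE 0.22, edgeR p 0.142, adjusted p 0.336). Dnm3 spans a long gene with other genes on the opposite strand, 2810442N19Rik and Gm10176. Within the dynamins, which again needs no scaling between libraries, Dnm2 took 96.5%, 96.5% and 97.1% of the level per kb in NP+ and 92.1%, 91.3% and 94.9% in NP-. Dnm3 took 3.44%, 3.34% and 2.83% in NP+ and 6.00%, 7.41% and 4.79% in NP-, and neither share overlapped between the groups. Per kb of coding length, the Dnm3 shares were larger, 13.3% ± 1.21 (SD, n = 3) in NP+ and 22.9% ± 4.06 in NP-, because most of its exonic length is not coding.

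**Figure D4:**
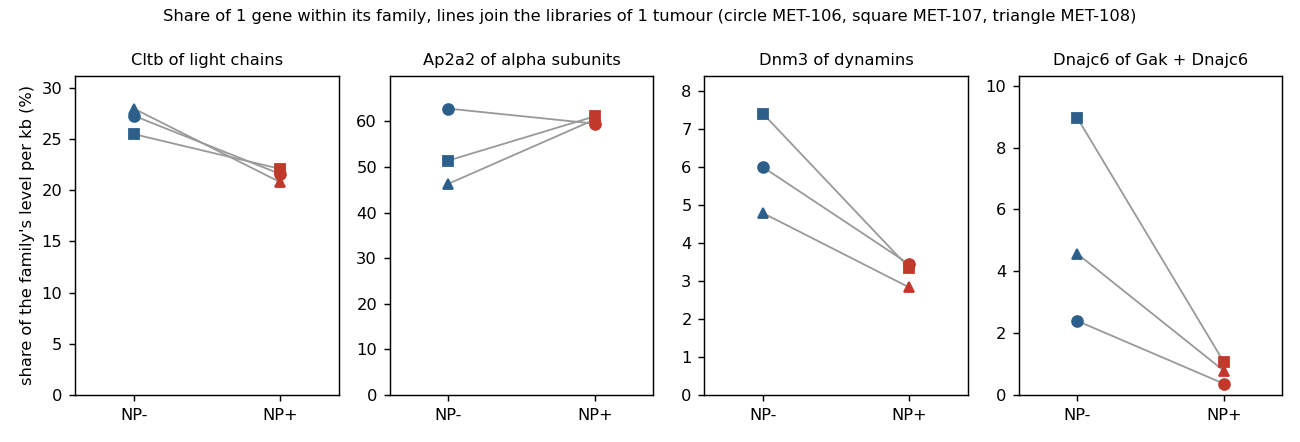
Share of 1 gene in the summed level per kb of its family, in percent, in NP- (blue) and NP+ (red), with lines joining the libraries of each tumour and axes starting at 0. Cltb, Dnm3 and Dnajc6 took a smaller share in NP+ in each tumour, whereas the share of Ap2a2 went down in MET-106 and up in the other 2 tumours.

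After scission the coat is removed. Gak, the widely expressed auxilin, which is also a kinase, stood at 165, 114 and 149.8 CPM in NP+ against 79.0, 102 and 121 CPM in NP-. NP+ was higher in each tumour, but NP+ of MET-107 lay below NP- of MET-108 (log2 fold change 0.51, SE 0.22, edgeR p 0.0480, adjusted p 0.211). Within the auxilins, Gak took 99.6%, 98.9% and 99.2% of the level per kb in NP+ and 97.6%, 91.1% and 95.4% in NP-, without overlap, and Dnajc6 took the rest. Hspa8 stood at 2509.7, 2341 and 2688 CPM in NP+ against 2241, 1562 and 2599 CPM in NP-, with overlapping groups and a log2 fold change of 0.24 (SE 0.22, edgeR adjusted p 0.510) that turned to -0.06 under total-count scaling. Reads of its intron-hosted small nucleolar RNAs (Snord14c, Snord14d and Snord14e) lie inside the same gene. Synj1, the phosphatase synaptojanin, and Aak1, the kinase that phosphorylates the AP-2 medium subunit, had log2 fold changes of 0.13 (SE 0.27) and -0.29 (SE 0.30) with overlapping groups.

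The 5 members that were lower in NP+ at an unadjusted p under 0.05 are relatives of the genes above that are known mainly from synapses, and their levels were low in all libraries. Dnajc6, the neuronal auxilin, stood at 0.549, 1.13 and 1.08 CPM in NP+ against 1.78, 9.19 and 5.31 CPM in NP- (log2 fold change -2.55, SE 0.72, edgeR p 0.00644, adjusted p 0.130). Dnm1, the synaptic dynamin, was at 0.275, 0.364 and 0.376 CPM in NP+ against 3.45, 2.70 and 0.639 CPM in NP- (log2 fold change -2.73, SE 0.86, edgeR adjusted p 0.145). Neither gene's groups overlapped, nor did those of Sh3gl2, endophilin A1. Sh3gl2 had 0 counts in the NP+ library of MET-106, which allows up to 0.0824 CPM, 0.455 and 0.527 CPM in the others of NP+, and 0.564, 3.24 and 6.26 CPM in NP- (log2 fold change -3.33, SE 1.32, edgeR adjusted p 0.184). Amph, the neuronal amphiphysin, stood at 0.275 to 0.903 CPM in NP+ and at 0.606, 3.58 and 5.08 CPM in NP- (log2 fold change -2.24, SE 0.91, edgeR adjusted p 0.189). Snap91, the neuronal AP180, rested on 1 library, 8.86 CPM in NP- of MET-107, against 0.412 to 1.58 CPM in the other 5 (log2 fold change -2.65, SE 1.03, edgeR adjusted p 0.179).

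A background level moved in the same direction as these genes. Over 1106 olfactory receptor genes, which endothelial cells are not known to use, the density of counts was 0.0321, 0.0977 and 0.0566 CPM per kb in NP+ and 0.0847, 0.421 and 0.333 CPM per kb in NP-, 4.50 times higher in NP- by the means. Relative to that density, the mean NP- level per kb was 1.43 times for Snap91, 1.81 times for Amph, 1.83 times for Sh3gl2 and 1.54 times for Dnm1. In NP+ the same genes stood at 1.02, 1.71, 0.804 and 1.04 times. Dnm1 did not have the order of the density within NP-, at 0.657, 0.515 and 0.122 CPM per kb (MET-106, MET-107, MET-108). By the means, only Dnajc6 of these 5 stood further above the density, at 3.28 times in NP- and 2.5 times in NP+. Dnm3 by the same measure was at 8.6 times in NP- and 30.3 times in NP+. Leaving out both libraries of MET-107 left 0 members lower at an unadjusted p under 0.05. The part of this background, and of the neuronal markers that were also higher in NP-, in the 5 lower members was not tested.

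The authors' deposited table, from DESeq2, called more of these genes at its adjusted p under 0.05. It listed Ap2a1 (adjusted p 0.00983), Ap2a2 (0.00388) and Dnm2 (0.0181) as higher in NP+, where 3.71% of the genes in the authors' deposited table with an adjusted p were higher. It listed Sh3gl2 (0.0395), Dnm1 (0.0273) and Dnajc6 (0.00866) as lower in the authors' deposited table, where 9.45% were lower. DESeq2 run on the same counts called the same 3 higher, against 4.31% of genes, and 4 lower, the same 3 with Snap91, against 10.7% of genes. The adjusted p of Dnm2 ran from 0.0165 to 0.519 over the 20 fits, and edgeR called none of these genes on all 6 libraries with a low-count filter, but called Ap2a1 and Ap2a2 without one.

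The scaling of the libraries moved the level of all of these differences. Total-count scaling put the median over all tested genes at -0.59 and the median over the 29 well-expressed members at 0.05, and a filter of 5 CPM in at least 3 libraries put the members at 0.07. Under both, 2 members were higher at an unadjusted p under 0.05, Ap2a1 and Ap2a2, where 2.54% of genes were higher with total-count scaling and 6.44% with the 5 CPM filter. Relative to genes of their own level, the 29 members moved little, lying 0.10 higher in the main fit, 0.10 with total counts and 0.09 with the 5 CPM filter.

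**Figure D5:**
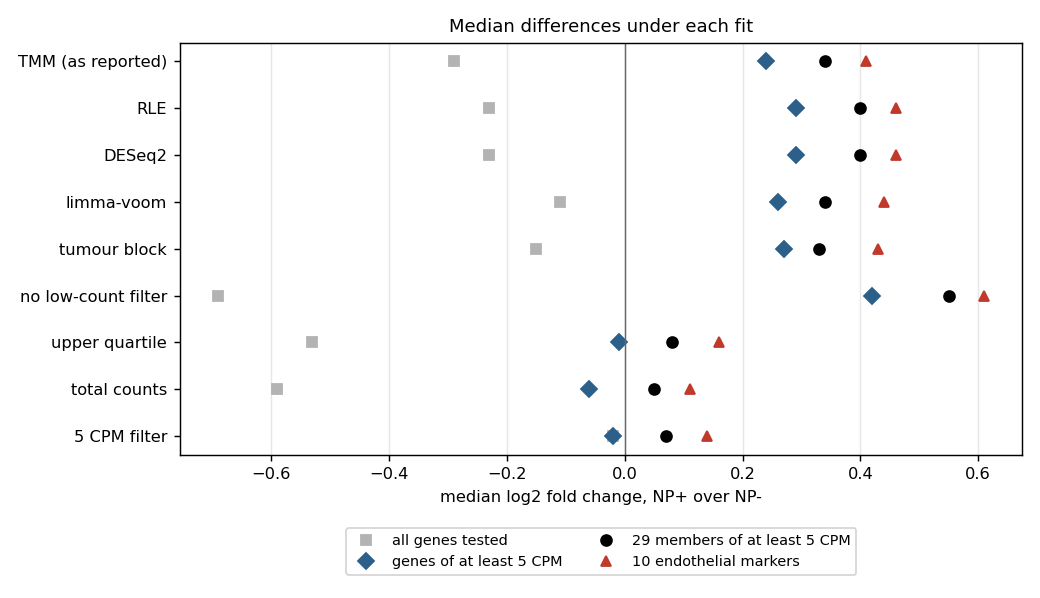
Median log2 fold change (NP+ over NP-) of all tested genes, of genes with a mean of at least 5 CPM, of the 29 members at that level and of the 10 endothelial markers under 9 fits. All 4 medians shift with the scaling, and the members lie between genes of their level and the endothelial markers in each of the 9.

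Set against the endothelial markers of the same library, the groups overlapped for most of the list. Per 1000 CPM of endothelial markers, the NP+ libraries lay above the NP- libraries for 2 of the 29 well-expressed members and below them for 5, where 3.19% and 19.1% of the genes of that level did so. Ap2a2 stood at 13.3, 12.3 and 13.5 per 1000 in NP+ and 11.5, 8.39 and 3.75 in NP-, and Dnm2 at 25.6, 25.2 and 28.0 per 1000 in NP+ and 24.2, 22.9 and 21.6 in NP-. The 5 below were Eps15, Eps15l1, Epn2, Dnm3 and Aak1. Summed AP-2 came to 85.8, 91.1 and 90.5 per 1000 in NP+ and 96.9, 74.0 and 69.9 in NP-, with the NP- library of MET-106 above the NP+ libraries and the other 2 below them, and the clathrin chains had a ratio of 1.00 by this measure.

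A wider list of 111 genes that act beside or after this machinery was read in the same way. At an unadjusted p under 0.05, 29 were higher in NP+ and 9 lower, beside 8.01% and 15.4% of all tested genes. After adjustment, 0 passed. Of 101 with at least 5 CPM, 29 were higher (28.7%, where 17.5% of genes of that level were). Of the same 101, 5 were lower, where 5.48% of genes of that level were. The median log2 fold change was 0.31 over the 111, beside -0.29 over all tested genes. For the 101 it was 0.33, beside 0.24 over all genes of that level. The authors' deposited table called 16 of the 111 higher and 6 lower at its adjusted p under 0.05. Of all its genes with an adjusted p, 3.71% were higher and 9.45% lower.

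Among 20 genes of BAR domains and actin coupling, 6 were higher at an unadjusted p under 0.05 and 0 lower. The 6 were 31.6% of those with at least 5 CPM, beside 17.5% of all genes of that level. Snx9, a sorting nexin that binds dynamin 2 and AP-2, stood at 46.2, 48.0 and 47.1 CPM in NP+ and at 20.2, 12.3 and 9.35 CPM in NP-. The groups were far apart, and the log2 fold change of 1.75 (SE 0.30, edgeR adjusted p 0.0875) had the lowest adjusted p of the 111. Actr3 and Arpc2, of the actin-branching Arp2/3 complex, had log2 fold changes of 0.75 and 0.53 (edgeR adjusted p 0.110 and 0.141) without overlap.

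Among 18 other clathrin adaptors, 3 were higher and 3 lower at an unadjusted p under 0.05. The 3 higher ones were 21.4% of those with at least 5 CPM, near the 17.5% of all genes of that level. The 3 lower ones were under 5 CPM. Sh3kbp1 and Cd2ap, scaffolds of receptor down-regulation, had log2 fold changes of 1.19 and 0.66 (edgeR adjusted p 0.124 and 0.198). Sh3kbp1 stood at 78.4, 64.3 and 69.2 CPM in NP+ against 47.0, 24.7 and 21.0 CPM in NP-, and neither gene's groups overlapped.

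Of 11 phosphoinositide enzymes, 2 were higher, 20.0% of those with at least 5 CPM, near the 17.5% of all genes of that level. Pip5k1c, a kinase that makes the lipid AP-2 binds, was at 215, 178 and 194 CPM in NP+ against 100.2, 127 and 52.9 CPM in NP- (log2 fold change 1.07, SE 0.29, edgeR adjusted p 0.128), and Inppl1, a lipid phosphatase, had a log2 fold change of 1.00 (edgeR adjusted p 0.144). Pik3c2a, a clathrin-binding lipid kinase, had 0.40 (edgeR adjusted p 0.244). Of 24 early endosome genes, all with at least 5 CPM, 7 were higher (29.2%) and 1 lower. Of all genes of that level, 17.5% were higher and 5.48% lower. Ehd3, a recycling ATPase, stood at 206, 167 and 203 CPM in NP+ and at 143, 79.7 and 73.6 CPM in NP- (log2 fold change 0.96, SE 0.27, edgeR adjusted p 0.130), and Rab11fip5 had a log2 fold change of 0.71 (edgeR adjusted p 0.154). The lower one was Dennd1b, an activator of Rab35, at 9.64, 9.80 and 11.9 CPM in NP+ against 18.0, 26.6 and 31.7 CPM in NP- (log2 fold change -1.28, SE 0.29, edgeR adjusted p 0.109).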

How the data were processed

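RNA of 6 sorted samples was amplified with the SMART-Seq v4 kit and read as 150 bp pairs, per the labels' protocols. That kit keeps no strand and adds no molecular identifiers. Read counts per gene were deposited by the authors, with Trimmomatic 0.036, STAR 2.5.2b, featureCounts (Subread 1.5.2), DESeq2 and GRCm38 named in the submitters' processing notes. The annotation release and the settings for strand and multiple matches were not given in the sources used here. The authors' deposited table also holds a normalized signal, log2 fold changes and p-values per the file headers. Of 156426 values of that signal, 100% came out as whole reads within 0.01 and equal to the counts, and the test on those reads called the same numbers of members as the test on the counts.

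The counts were filtered with filterByExpr (minimum count 10), scaled with TMM and fitted with edgeR 4.0.16 (R 4.3.3). DESeq2 1.42.0 and limma 3.58.1 with voom were alternatives, beside other scalings and filters, the tumour as a block and each library or tumour left out. The code was tested on simulated data. The numbers of the labels pair the samples because both libraries of a number came from 1 tumour, and the correlation of paired deviations from the group means was 0.282, 0.214 and 0.0209 for MET-106, MET-107 and MET-108. Replicates are separate tumours. Intervals and limits from counts cover counting error only. Ratios within a tumour used a pseudocount of 0.1 CPM.

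Full values are given for up to 10 members with the smallest unadjusted p among those with at least 5 CPM and 1 direction in 3 of 3 tumours, for core genes and for members known mainly from neurons, and in each of 6 wider lists for up to 3 genes with the smallest p of at least 5 CPM and 1 direction. Necap2, Bin1, Eps15l1, Itsn2, Fcho1 and Epn3 were chosen after their values were seen. The members and lists were chosen with earlier results of these data known. Cltrn, entered among the wider genes in error, is no clathrin gene and was not counted. A gene of the wider lists that the rule names is not reported here. Coding lengths came from GENCODE M21, and for Itgam the gene ID of the deposited table was used.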

Additional observations from a re-analysis of the deposited data

How the results depend on the processing

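With the tumour as a replicate block, 6 members in place of 10 were higher at an unadjusted p under 0.05, and it changed no adjusted call. With the block and the 5 CPM filter, 2 were higher and 1 lower, as with that filter alone, and the median log2 fold change of the members tested was 0.07 under either in place of 0.26. Without the low-count filter the median was 0.50 and 2 members passed the adjustment, and with DESeq2 7 did. Total-count scaling gave 2 higher members and a median of -0.06, and upper-quartile scaling 2 and -0.02. Of the 29 members with at least 5 CPM, under these scalings 4 and 7 were higher in 3 of 3 tumours in place of 14, 3 and 4 had NP+ above NP- without overlap in place of 10, and 2 and 2 had it below in place of 0. The matching shares of all genes were not computed under these scalings. The median of genes at that level moved to -0.06 and -0.01. Limma-voom called 2 lower in place of 5. Leaving out 1 library gave 0 to 3 members past the adjustment, 3 to 11 higher and 2 to 4 lower. The 3 passed without the NP- library of MET-106 and were Ap2a2, Ap2s1 and Dnajc6. Leaving out both libraries of MET-107 gave 4 higher and 0 lower, and of MET-108 6 and 3. Cltb turned to -0.23 with the 5 CPM filter, -0.22 with block and filter, -0.26 with total counts, -0.20 with the upper quartile, -0.04 without the NP- library of MET-108 (from -0.04 to 0.23 over single libraries left out) and -0.0041 without both libraries of that tumour. Hspa8 turned to -0.03, -0.0046, -0.06 and -0.02 under the first 4 of these. Of 389 single-gene values, for 21 members under 19 alternatives, 367 kept their direction and side of the threshold, 12 passed it newly and 10 turned. Shares of all genes called were not computed for the fits with the block, upper-quartile scaling, limma-voom, no low-count filter or left-out libraries. Causes were not tested. Low counts and nearness to the olfactory receptor density limit the 8 members under 5 CPM.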

Other observations

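Cargo receptors and adaptor complexes of other membranes were measured beside the endocytic coat. Of 18 clathrin cargo receptors, 4 were higher in NP+ and 5 lower at an unadjusted p under 0.05. Of the 17 with at least 5 CPM, 4 were higher (23.5%) and 4 lower. Of all genes of that level, 17.5% were higher and 5.48% lower. Itgb1, the beta-1 integrin, stood at 2263, 1963 and 2375 CPM in NP+ and at 1209, 817 and 373 CPM in NP-, a log2 fold change of 1.46 (SE 0.37, edgeR adjusted p 0.122) with no overlap. Lrp1, a large receptor of the lipoprotein family, stood at 2.31, 3.99 and 1.98 CPM in NP+ and at 79.8, 15.2 and 5.58 CPM in NP-, a log2 fold change of -3.60 (SE 0.89, edgeR adjusted p 0.120). The NP- libraries have the same order for Lrp1 as for the summed fibroblast, mural, epithelial, leukocyte and adipocyte markers. The part of other cells in Lrp1 was not tested. Lrp2 had a log2 fold change of -2.64 (SE 0.81, edgeR adjusted p 0.143), with overlapping groups and 1.57 to 19.8 CPM in NP-.

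Of 20 genes of the Golgi and endosome adaptor complexes, 7 were higher and 0 lower at an unadjusted p under 0.05. The 7 were 41.2% of the 17 with at least 5 CPM, beside 17.5% of all genes of that level. Ap3s1, the small subunit of AP-3, stood at 45.4, 61.7 and 50.5 CPM in NP+ and at 36.4, 19.9 and 19.8 CPM in NP- (log2 fold change 1.05, SE 0.29, edgeR adjusted p 0.127). Ap3d1, the AP-3 delta subunit, and Ap1g1, the AP-1 gamma subunit, had log2 fold changes of 0.75 and 0.62 (edgeR adjusted p 0.142 for both), and the groups did not overlap for any of these 3 genes. Summed over the 20 genes, the level was 1293, 1114 and 1263 CPM in NP+ against 907, 852 and 919 CPM in NP-.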
